A study of Mus musculus with 2 samples.

Results

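The keratin genes were taken as every gene whose symbol is Krt followed by a number and at most 1 letter, which gave 55 of the 34290 genes in the table, 28 of type I and 27 of type II. They were described in 2 libraries of bulk RNA from 4T1 tumours, which are grown in mice from a mammary carcinoma cell line. The treated library came from a tumour of batch 1, of a mouse that had been injected 3 times with a degrader of a protein linked to autophagy. The control library came from a tumour of batch 2, labelled as control with no agent named. The sources used do not give mouse strain, age, the site of the tumour or the name and target of the degrader. With 1 library in each group there is no replicate, no test between conditions and no p-value, batch and treatment cannot be told apart, and each value compares these 2 libraries only. Of the 55 keratin genes, 23 had at least 1 count, 16 had a mean of at least 10 CPM (counts scaled to a common library size) over both libraries, and 32 had 0 counts in both.

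Keratins are the intermediate filament proteins of epithelial cells. Each filament is built from pairs of a type I and a type II chain, and the pair that a cell makes tells its kind. Simple epithelia, such as mammary luminal cells and carcinomas derived from them, make Krt8 with Krt18. Basal cells of stratified epithelia and myoepithelial cells make Krt5 with Krt14, and epidermal cells that leave the basal layer make Krt1 with Krt10. Wounded or activated epidermis makes Krt6a and Krt6b with Krt16 and Krt17, and hair follicles have root sheath and shaft keratins of their own.

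The treated library held 3824323 counts and the control library 2252214, so that 1 count equalled 0.259 and 0.449 CPM after scaling, and a gene with 0 counts could still lie at up to 3 counts, which are 0.776 and 1.35 CPM. A gene was called when it differed by 2-fold or more on the log2 scale, after 1 CPM was added to both values, and averaged 10 CPM or more. Of the 8865 genes that reached this level, 4.23% were called higher in the treated library and 2.5% lower. Their median log2 ratio was 0.029. Without the minimum the shares were 7.03% and 4.01% of 19296 genes with a count, with a median of 0.067. In the tissue check, the epithelial adhesion gene Epcam had 2638 treated and 985 control counts, the cadherin gene Cdh1 of epithelial junctions had 769 and 453, and the mesenchymal filament gene Vim had 6646 and 4134. Both tumours therefore held epithelial and mesenchymal transcripts. In bulk RNA, fewer cells of a type and less RNA per cell cannot be told apart.

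The 2 libraries held similar amounts of simple epithelial keratin RNA and very different amounts of the keratins of stratified epithelium. Of the 16 keratin genes that averaged 10 CPM or more, 12 were at least 2-fold higher in the treated library, none was 2-fold lower, and 4 differed by less. The share of all genes called higher is the 4.23% above. Of these 16 genes, 9 were under 10 CPM in the control library and passed the minimum through the treated library alone, which favours high ratios. With no minimum, 16 of the 23 genes with a count were called higher and none lower, and with the reduced sheet described below, 11 of 16 were higher. All 4 genes that differed by less than 2-fold were simple epithelial keratins. The median log2 ratio of the 16 genes was 4.36, or 3.81 when Krt15, which had no control count, was set at 3 control counts. It was 3.37 with the reduced sheet and 2.56 over the 23 genes with a count. Among the 10 highest log2 ratios of the 8865 genes averaging 10 CPM or more, 4 were keratins, and among the 100 highest there were 11.

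**Figure D1:**
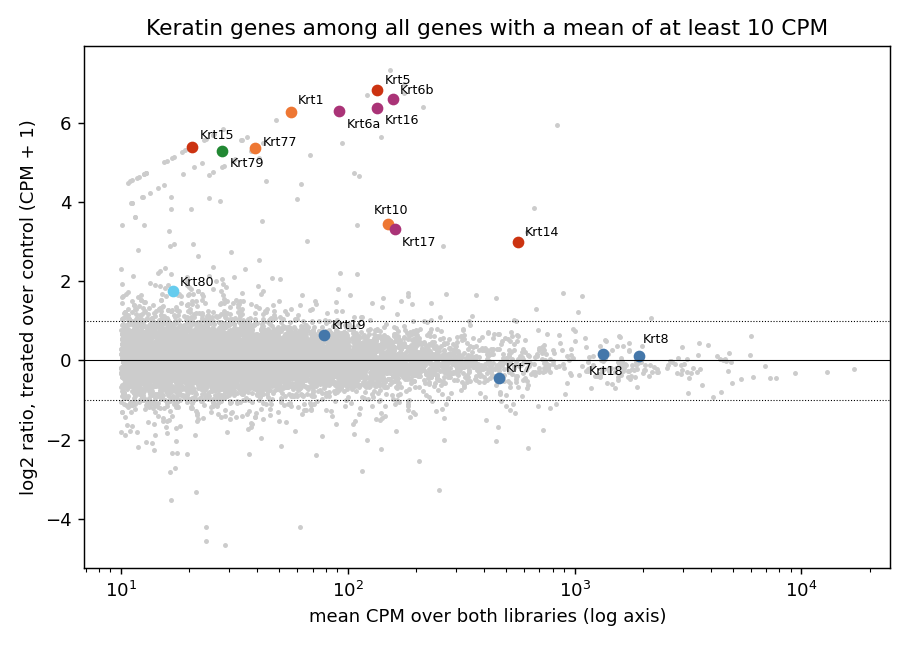
The log2 ratio of treated over control (vertical axis, CPM + 1) is plotted against the mean CPM over both libraries (log axis) for every gene averaging 10 CPM or more, in grey, with the 16 keratin genes in the colours of their class. The simple epithelial keratins Krt7, Krt8, Krt18 and Krt19 lie between the dotted lines that mark 2-fold, and the other 12 lie above them.

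Summed over the family, keratins held 0.691% of the counts of the treated library (exact 95% interval 0.683% to 0.699%) and 0.385% of those of the control library (0.377% to 0.393%). These intervals, like all others below, cover counting error only. Simple epithelial keratins accounted for 95.04% of keratin counts in the control tumour and for 57.3% in the treated tumour. The composition thus differed while the simple keratins themselves were near the same level, at a summed 3914 CPM (treated) and 3699 CPM (control). All other keratins together had 11296 counts, or 2923 CPM, in the treated library against 430 counts, or 193 CPM, in the control. These are values of the full sheet. In the reduced sheet described below, Krt79 has 99 control counts in place of 1, and the family held 0.389% of control counts.

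**Figure D2:**
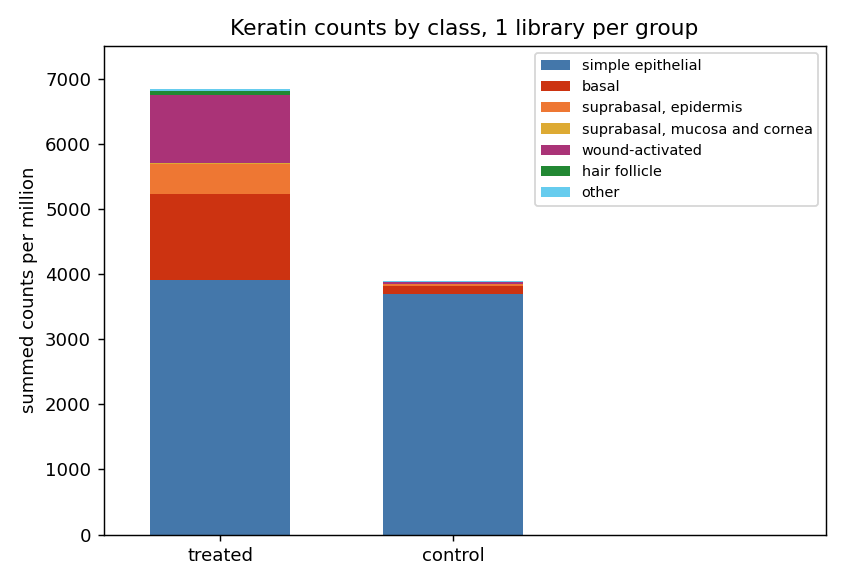
Bars give the summed CPM of the keratin genes in each library, split by class, from the full sheet. There is 1 library per group and the axis starts at 0. The blue simple epithelial part is 3914 CPM (treated) and 3699 CPM (control), and the parts above it sum to 2923 and 193 CPM.

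The keratin genes lie in 2 clusters. The type II cluster on chromosome 15 holds 27 of the 54 genes placed by GENCODE M21 (mm10), over 685 kb from 101347444 to 102032027, and includes 1 type I gene, Krt18, at its end. The type I cluster on chromosome 11 holds the other 27, over 1037 kb from 99232761 to 100269871. Krt74 is not placed under the identifier that the table gives it. Expressed and silent genes alternated in runs along both clusters. On chromosome 15, a run of 10 genes from Krt87 to Krt75, mainly hair keratins, had no count in either library, and it stood between Krt80 and Krt7 on one side and Krt6b, Krt6a and Krt5 on the other. The 3 root sheath genes Krt71, Krt72 and Krt73 lay silent between Krt5 and the epidermal run of Krt2, Krt1 and Krt77. Krt8 and Krt18, whose levels hardly differed, were the next genes after Krt79 and Krt78, which had 1 and 0 control counts in the full sheet (for Krt79 the reduced sheet gives 99). On chromosome 11, a run of 9 hair genes from Krt39 to Krt36 was silent and was followed by a run of 7 genes with counts, from Krt13 to Krt17. This run held the low Krt13 and Krt9, the simple keratin Krt19, and Krt15, Krt14, Krt16 and Krt17 of stratified epithelium.

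**Figure D3:**
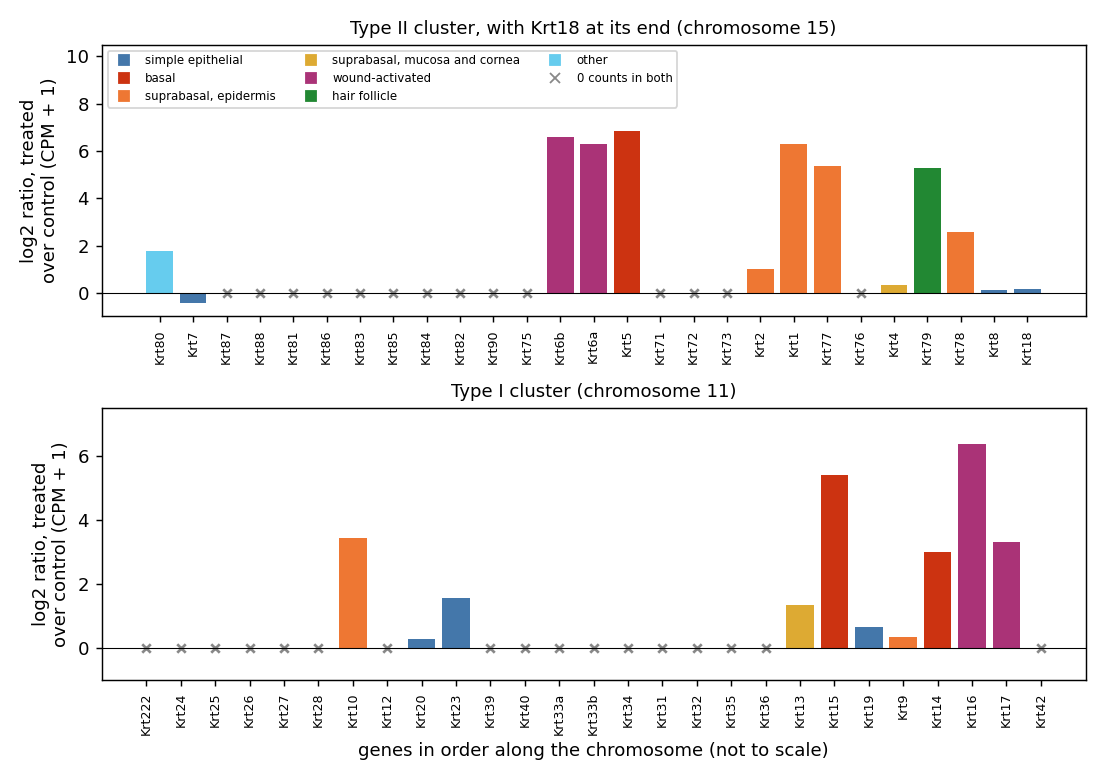
The log2 ratio of treated over control (vertical axis, CPM + 1) is drawn for each keratin gene in its order along chromosome 15 (upper panel) and chromosome 11 (lower panel), not to scale, in the colours of the classes. Grey crosses mark genes with 0 counts in both libraries, which form runs between the genes with counts, and Krt8 and Krt18 stand beside genes with high ratios.

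Promoters are shown for 4 genes that represent the simple pair, the basal class and the suprabasal class, to set the sequences of keratins that differed little beside those of keratins that differed widely. Each window runs from 250 bases before to 50 bases after the start of the gene in RefSeq on GRCm38.p6, 5′ to 3′ on the strand of the gene. Capitals mark the CACCC box that factors of the KLF family bind, on either strand, so that it reads GGGTG where it lies on the other strand. The windows are chr15:102004293-102004592 (minus strand) for Krt8, chr15:102027966-102028265 (plus strand) for Krt18, chr15:101712856-101713155 (minus strand) for Krt5 and chr11:99389315-99389614 (minus strand) for Krt10.
Krt8: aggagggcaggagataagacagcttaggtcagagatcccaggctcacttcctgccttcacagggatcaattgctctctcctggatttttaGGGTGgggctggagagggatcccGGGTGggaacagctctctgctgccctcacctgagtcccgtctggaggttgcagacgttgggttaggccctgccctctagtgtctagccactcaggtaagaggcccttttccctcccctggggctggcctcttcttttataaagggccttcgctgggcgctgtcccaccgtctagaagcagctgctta
Krt18: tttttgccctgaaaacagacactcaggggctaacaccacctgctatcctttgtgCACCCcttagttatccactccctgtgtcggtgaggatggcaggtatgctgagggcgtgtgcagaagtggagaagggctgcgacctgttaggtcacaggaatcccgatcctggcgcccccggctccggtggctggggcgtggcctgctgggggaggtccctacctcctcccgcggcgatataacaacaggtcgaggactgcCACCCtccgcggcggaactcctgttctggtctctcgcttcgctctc
Krt5: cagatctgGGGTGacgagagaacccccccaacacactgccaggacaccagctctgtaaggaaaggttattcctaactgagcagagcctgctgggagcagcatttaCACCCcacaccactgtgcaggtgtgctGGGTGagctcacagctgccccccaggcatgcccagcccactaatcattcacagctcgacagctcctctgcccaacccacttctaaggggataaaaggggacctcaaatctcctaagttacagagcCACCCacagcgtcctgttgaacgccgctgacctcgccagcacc
Krt10: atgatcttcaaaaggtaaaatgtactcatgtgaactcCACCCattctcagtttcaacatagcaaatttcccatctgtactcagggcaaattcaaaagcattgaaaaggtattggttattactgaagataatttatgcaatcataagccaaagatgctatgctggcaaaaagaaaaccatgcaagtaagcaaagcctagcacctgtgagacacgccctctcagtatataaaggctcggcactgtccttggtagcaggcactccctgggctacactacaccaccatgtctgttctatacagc
The Krt8 and Krt18 windows each held 2 such boxes, the Krt5 window 4 and the Krt10 window 1, so the count of boxes did not separate the simple pair from the others. RefSeq windows were at hand for 36 of the 55 genes, of which 34 had one that began within 200 bases of the start of the gene in GENCODE M21. Of those 34 genes, 28 had CACCC on either strand, against 57.5% of all 32851 windows of 300 bases. A gene was counted when any of its windows held the motif, while the shares of all windows are per single window, so they are unlike measures. The TATA box TATAAA, on either strand, was in 19 of the 34 genes, against 13.6% of all windows. Among the 8 of the 34 genes whose counts are named below, Krt8 and Krt10 had it. The AP-1 motif TGANTCA, whose reverse complement has the same form, was in 1 of the 34 genes and in none of those 8, against 7.81% of all windows. The AP-2 motif GCCNNNGGC, likewise the same on both strands, was in 6 of the 34 genes, against 16.6% of all windows. Motifs were counted separately whether or not they overlapped, and a match describes letters only. The named genes Krt1, Krt6a, Krt6b, Krt15, Krt16, Krt17, Krt19 and Krt80 had no entry in the promoter table.

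Among the simple epithelial keratins, the main pair was nearly level and the minor members went different ways. Krt8, the type II chain of simple epithelium, had 7729 counts or 1999.8 CPM in the treated and 4116 counts or 1847 CPM in the control library, a ratio of 1.08 (95% counting interval 1.04 to 1.12). Krt18, its type I partner, had 5479 counts or 1418 CPM against 2803 counts or 1258 CPM, a ratio of 1.13 (1.08 to 1.18). Both were slightly higher in the treated library, by less than 1.2-fold under each of the scalings tried. Krt7, a type II keratin of ducts and glands, was the only measured keratin that was lower in the treated library, at 1521 counts or 394 CPM against 1184 counts or 531 CPM, a ratio of 0.741 (0.686 to 0.800). Krt19, a type I keratin of simple and ductal epithelium, had 373 counts or 96.5 CPM against 136 counts or 61.0 CPM and was 1.58-fold higher (1.30 to 1.94). Krt7 and Krt19 thus lay on opposite sides of Krt8 and Krt18. Krt23, a type I keratin of low abundance, had 23 against 3 counts, a ratio of 4.42 (1.34 to 23.0), and Krt20, a keratin of intestinal epithelium, had 3 against 1. Both were under the minimum of 10 CPM.

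All 3 basal keratins were at least 2-fold higher in the treated library, with very unlike ratios. Krt14, the type I chain of basal cells, had 3856 counts or 998 CPM in the treated library and was also present in the control library, at 275 counts or 123 CPM, a ratio of 8.08 (7.15 to 9.17). Krt5, its type II partner, had 1038 counts or 269 CPM against 3 counts or 1.35 CPM, a ratio of 199.5 (68.1 to 969). Krt15, a type I keratin of basal cells and of the stem cells of the hair follicle bulge, had 160 counts or 41.4 CPM against none. It was 30.8-fold higher when the control library is set at 3 counts, a value that leaves out counting error in the treated count. The control tumour therefore held Krt14 RNA with almost no Krt5 RNA. There were 3.71 Krt14 counts per Krt5 count in the treated library (3.47 to 3.98) and 91.7 in the control library (31.04 to 447), and these intervals did not overlap.

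The suprabasal keratins of the epidermis showed the same split between a type I chain with a control level and type II chains without one. Krt10, the type I keratin of the spinous layers, had 1071 counts or 277 CPM against 55 counts or 24.7 CPM, a ratio of 11.2 (8.56 to 15.005). Krt1, its type II partner, had 433 counts or 112 CPM against 1 count or 0.449 CPM, a ratio of 249.7 (44.6 to 9884). Krt77, a relative of Krt1 found in suprabasal epidermis, had 299 against 2 counts, a ratio of 86.2 (23.7 to 715). There were 2.47 Krt10 counts per Krt1 count in the treated library (2.21 to 2.77) and 55 in the control library (9.47 to 2211), on a single control count of Krt1. Krt78, a type II keratin of differentiated epidermis, had 19 treated counts and no control count, 3.65-fold higher when the control library is set at 3 counts. Krt2, the keratin of the upper spinous and granular layers, had 4 counts against none, and Krt9, the keratin of the skin of palms and soles, had 1 against none. At this depth no difference could be shown for Krt2 or Krt9. Of the keratins of mucosa and cornea, Krt13 and Krt4, the pair of oral and oesophageal epithelium, had 6 and 1 counts in the treated library and none in the control library. The cornea keratin Krt12, the palate keratin Krt76 and Krt24 had 0 counts in both.

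All 4 wound-activated keratins were higher in the treated library, and 3 of them were nearly absent from the control library. Krt6b had 1213 counts or 314 CPM against 5 counts or 2.24 CPM, a ratio of 139.9 (59.8 to 432), and Krt6a had 706 counts or 183 CPM against 3 counts or 1.35 CPM, a ratio of 136 (46.2 to 659.6). Krt16, a type I partner of both, had 1035 counts or 268 CPM against 5 counts or 2.24 CPM, a ratio of 119 (51.0 to 368). These 3 ratios lay within each other's counting intervals. Krt17, a type I keratin of activated epidermis, hair follicles and some basal-like carcinomas, had 1136 counts or 294 CPM against 64 counts or 28.7 CPM, a ratio of 10.2 (7.95 to 13.4). Its ratio lay below the intervals of the other 3. Per count of Krt6a and Krt6b together there were 0.592 Krt17 counts in the treated library (0.550 to 0.637) and 8 in the control library (3.83 to 19.3). The same measure for Krt16 was 0.539 (0.4996 to 0.582) and 0.625 (0.161 to 2.17), which overlapped. In the full sheet, Krt14, Krt17 and Krt10, all of type I, were thus the keratins of stratified epithelium with the highest control levels, while Krt15 and Krt16, also of type I, were low. In the reduced sheet, Krt79, a type II keratin of the hair follicle, had 44.4 CPM in the control library, above Krt17 and Krt10.

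Krt6a and Krt6b are near copies, and how reads were divided between them is not stated in the sources used. Their coding sequences are 97.6% identical over 1665 aligned columns, with 37 differing bases and 3 gap columns. The 60 bases in which they differ most, bases 817 to 876 of both coding sequences from GENCODE M21, are shown because reads from such a stretch are the ones that can tell the genes apart. Both genes lie on the minus strand of chromosome 15, and capitals mark the differing bases, of which there are 10.
Krt6a: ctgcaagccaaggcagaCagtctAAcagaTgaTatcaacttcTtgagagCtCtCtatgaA
Krt6b: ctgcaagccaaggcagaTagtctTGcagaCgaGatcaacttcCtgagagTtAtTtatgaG
Of the 50-base windows of the Krt6a transcript, 49.5% occurred in a transcript of another gene, mainly Krt6b, and 50.1% of those of Krt6b did, mainly Krt6a. None of the windows in the last 500 bases of either transcript did. The same share was 37.6% for Krt16, mainly with the predicted gene Gm11597, 26.9% for Krt8, with a Krt8 pseudogene, 14.4% for Krt14, 8.52% for Krt5 and 3.99% for Krt17. It was under 1% for Krt15 and Krt18, and 0 for Krt1, Krt7, Krt10, Krt19, Krt23, Krt77, Krt78, Krt79 and Krt80. In the last 500 bases the share was 16.9% for Krt16, 9.53% for Krt14 and for Krt17, and 0 for Krt5 and Krt8. The values of Krt6a, Krt6b, Krt16, Krt8, Krt14, Krt5 and Krt17 are therefore uncertain as to how shared reads were assigned, to a degree that depends on where in the transcript the reads lie, which the sources used do not state.

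Hair keratins were silent but for 1 gene. Of 10 genes of the follicle root sheaths and canal and 16 of the hair shaft, 25 had 0 counts in both libraries, which allows a summed share of up to 7.84e-05% of treated and 0.000133% of control counts. The exception was Krt79 (chromosome 15, 101929332 to 101940324, minus strand), a type II keratin of the cells that line the hair follicle canal and the sebaceous duct. In the full sheet it had 215 counts or 55.6 CPM (treated) and 1 count or 0.449 CPM (control), a ratio of 124 (22.01 to 4919). In the reduced sheet, which the authors named as having errors removed, its treated value was the same 215 counts, but its control value was 99 counts or 44.4 CPM, a ratio of 1.25 (0.983 to 1.61). The 2 sheets thus give Krt79 different calls, and what was done between them is not stated in the sources used. The other 54 keratin genes had the same values in both sheets. Of 34219 genes on the count scale that both sheets list, none differed in the treated column and 3 in the control column. The other two were the desmosomal cadherin gene Dsc3, at 0 in the full and 89 in the reduced sheet, and Pof1b, an actin-binding protein of epithelia, at 2 and 99. With the reduced sheet these genes had 1.30-fold and 1.24-fold higher values in the treated library. The full sheet gave 38.4-fold for Dsc3, with its control set at 3 counts, and 61.4-fold for Pof1b. The reduced sheet also left out 40 genes, among them the keratinocyte genes Krtdap and Sbsn and no keratin.

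**Figure D4:**
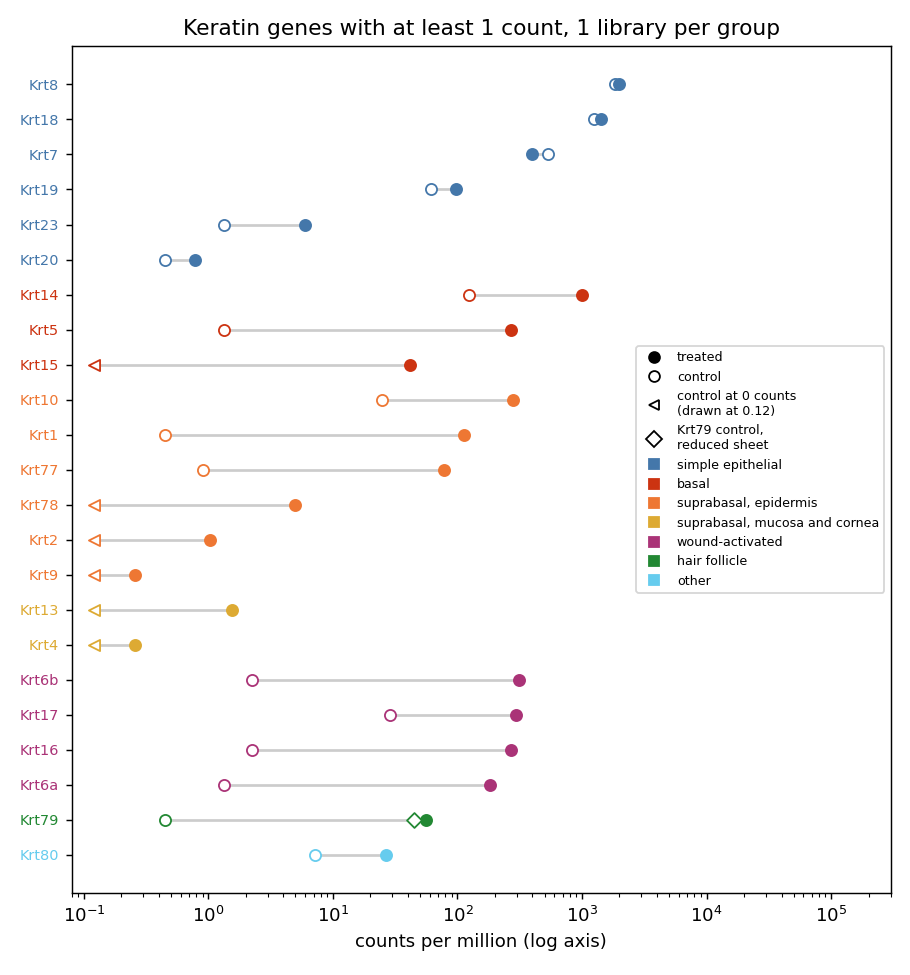
Each keratin gene with at least 1 count is a line, with its CPM on a log axis in the treated (filled) and the control library (open), coloured by class. Open triangles stand for 0 control counts, and the open diamond gives the control value of Krt79 in the reduced sheet, 44.4 CPM, beside its treated value of 55.6 CPM.

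Other genes of hair were at unlike levels. Of 110 rows of keratin-associated proteins, which crosslink hair keratins, 2 had a count, with 5 treated and 0 control counts in all. The hair shaft regulators Hoxc13 and Msx2 had 0 counts in both, and Tchh, the trichohyalin of the inner root sheath, had 5 against 0. Of the same list, S100a3 had 12 against 6 counts, and Prr9 had 4 against 23, 9.97-fold lower (3.41 to 39.7) and under the minimum of 10 CPM. Of the remaining keratins, Krt80, a type II keratin of many epithelia, had 103 counts or 26.6 CPM in the treated and 16 counts or 7.18 CPM in the control library, a ratio of 3.71 (2.18 to 6.74). Among keratins averaging 10 CPM or more, its ratio stood between those of the simple keratins and those of stratified epithelium. Krt42, Krt88, Krt90 and Krt222 had 0 counts in both.

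**Figure D5:**
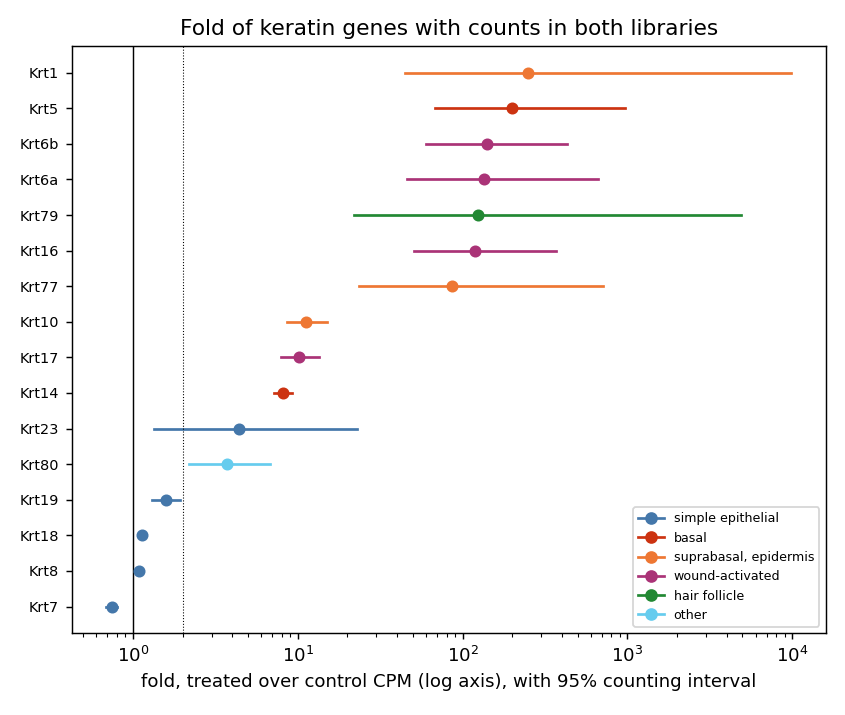
Points give the ratio of treated to control CPM on a log axis for the named keratin genes with a count in both libraries, lines their exact 95% counting intervals, and colours the class; the solid line marks a ratio of 1 and the dotted line 2. The ratios run from 0.741 for Krt7 to 249.7 for Krt1, with Krt14, Krt17 and Krt10 close together at 8.08, 10.2 and 11.2, and long intervals where the control library had 1 to 5 counts.

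To order the genes by level, CPM were divided by the length of the longest protein-coding transcript in kb. This assumes that reads come from the whole transcript, which is not stated in the sources used. In the control library the order was Krt8 (943 CPM per kb), Krt18 (875), Krt7 (129.8), Krt14 (72.7), Krt19 (38.7), Krt17 (18.5) and Krt10 (11.8), and all others were under 2 CPM per kb in the full sheet. With its reduced-sheet control value, Krt79 would stand at 21.2 CPM per kb, between Krt19 and Krt17. In the treated library Krt8 (1021) and Krt18 (987) still led, but Krt14 (588), Krt17 (189.5), Krt16 (171), Krt6b (140.4), Krt10 (132) and Krt5 (122) all came before Krt7 (96.1). The next were Krt6a (80.2), Krt19 (61.2) and Krt1 (45.6). By this measure Krt7 moved from the 3rd to the 9th place, which rests on its transcript length. That length was 4094 bases, against 1698 for Krt14 and 2235 for Krt6b. By CPM alone, Krt7 in the treated library came after only Krt8, Krt18 and Krt14. It had 394 CPM there, against 998 for Krt14 and 314 for Krt6b.

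The balance of the chain types also differed. Type I chains made up 49.7% of keratin counts in the treated library (49.1% to 50.3%) and 38.5% in the control library (37.5% to 39.6%). Without Krt8 and Krt18 the difference was wider, 58.0% (57.1% to 58.8%) against 30.7% (28.6% to 32.9%), and Krt7 held 1184 of the 1754 remaining control counts. The Krt8 and Krt18 pair itself kept its balance, with 0.709 Krt18 counts per Krt8 count in the treated library (0.685 to 0.734) and 0.681 in the control library (0.649 to 0.715). The ratio of Krt19 to Krt7 counts was 0.245 (0.218 to 0.275) against 0.115 (0.0955 to 0.137).

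The proteins that anchor keratin filaments went partly with the keratins of stratified epithelium. Of 22 genes of desmosomes, plakins and hemidesmosomes, 18 averaged 10 CPM or more. Of these, 9 were at least 2-fold higher and none lower in the treated library, beside 4.23% of all genes called higher. Their median log2 ratio was 1.09. Of the 18, 4 were under 10 CPM in the control library and passed the minimum through the treated library alone. With the reduced sheet, 8 of the 18 were past 2-fold and the median was 0.80. Perp, a desmosomal membrane protein, had 2603 against 504 counts (2.98-fold, 2.71 to 3.28), and Dsp, the plakin that ties keratins to desmosomes, had 1089 against 192 (3.27-fold, 2.80 to 3.83). Dsg1a, the desmosomal cadherin of differentiated epidermis, had 277 against 1 count, a ratio of 159.7 (28.4 to 6331), and Dsc3 had 200 against 0 in the full sheet. Of 18 other intermediate filament genes, 5 had a mean of at least 10 CPM and none differed by 2-fold, with a median log2 ratio of 0.34. Vim, the filament of mesenchymal cells, had a ratio of 0.927 (0.892 to 0.964), and Lmna, the nuclear lamin A, had 3202 against 1419 counts, a ratio of 1.30 (1.22 to 1.39). Nes, the filament nestin, had 0.715 (0.559 to 0.916) and Iffo2 1.51 (0.985 to 2.36).

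Markers of epidermal cells other than keratins moved with the keratins of stratified epithelium. All 19 such genes with a row had counts in the treated library, and 15 reached a mean of 10 CPM. All 15 were at least 2-fold higher, beside 4.23% of all genes called higher. Of the 15, 12 were under 10 CPM in the control library and passed the minimum through the treated library alone. The summed level of the 19 was 3846 CPM (treated) and 436 CPM (control), and the median log2 ratio of the 15 was 4.75. With the reduced sheet, which leaves out Krtdap and Sbsn, 13 of 13 were past 2-fold and the median was 4.49. Perp is also counted in the desmosome list above. Lgals7, a galectin of stratified epithelium, had 4801 against 189 counts (14.6-fold, 12.7 to 17.0), and Trp63, the transcription factor of basal cells, had 86 against 2. Calm4, a calmodulin-like protein of differentiating keratinocytes, had 1357 against 4 counts, and Krtdap, a protein of differentiating keratinocytes, had 1356 against 5. In the control library 15 of the 19 had counts, the highest being Perp with 504, Sfn with 230 and Lgals7 with 189, and Ivl, Casp14, Cnfn and Dapl1 were at 0. Whether epidermal cells in the treated sample had a part in the keratin differences was not tested.

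Among genes averaging 10 CPM or more, lists of other cell types moved less, or the other way. The counts below stand beside 4.23% of all 8865 such genes called higher and 2.5% called lower. Of 12 measured genes of mammary luminal cells, of 16 listed, 2 were at least 2-fold higher, Areg and Elf3, and none lower, with a median log2 ratio of 0.22 and summed levels of 2120 CPM (treated) and 1626 CPM (control). Epcam was 1.54-fold higher (1.43 to 1.66) and Cldn4, a claudin of tight junctions, 1.24-fold (1.14 to 1.35). Areg, the growth factor amphiregulin, had 317 against 42 counts (4.35-fold, 3.15 to 6.16), and Elf3, an epithelial transcription factor, had 66 against 13 (2.93-fold, 1.60 to 5.79). Krt5 and Krt14 are also keratins of myoepithelial cells. Of 11 other genes listed for these cells, 6 were measured. Of those, 3 were at least 2-fold lower and 1 higher, with a median log2 ratio of -1.14. The contractile gene Tagln had 184 against 436 counts (4.11-fold lower, 3.45 to 4.91) and the chemokine Cxcl14 282 against 567 (3.49-fold lower, 3.02 to 4.04). The gene that was higher was Trp63, at 86 against 2 counts, which is also counted in the keratinocyte list above. Summed levels of the myoepithelial list were 232 CPM (treated) and 624 CPM (control). Of 5 measured dermal fibroblast genes, 1 was 2-fold higher, the proteoglycan gene Dcn at 2.42-fold (1.97 to 2.98), and the matrix gene Lum and the retinoid-binding gene Crabp1 had ratios of 1.27 (1.05 to 1.55) and 1.75 (1.38 to 2.23). Summed levels of the dermal list were 401 CPM (treated) and 264 CPM (control). With a minimum of 1 CPM, 3 of 11 of these genes were past 2-fold, beside 1061 higher and 674 lower of all 13860 genes. None of 4 measured hair follicle genes, of 18 listed, and none of 3 measured sebaceous gland genes, of 12 listed, differed by 2-fold, with medians of -0.088 and -0.63. The 4 were Ctsc, Gata3, Sox9 and Padi3, of which Gata3 is also in the luminal list. The 3 were Mgst1, Soat1 and Prdm1. The sebaceous median had the other sign with a lower minimum, 0.094 at 1 CPM and 0.38 with none. Under the minimum of 10 CPM, the sebaceous genes Far2, Elovl3, Scd3, Awat1 and Awat2 had 14, 6, 4, 4 and 4 treated counts and no control count. No melanocyte gene reached 10 CPM. The most abundant were the protease gene Ctsc and the transcription factor gene Gata3 of the hair list, with ratios of 0.932 (0.843 to 1.03) and 1.03 (0.853 to 1.25), and Mgst1 and Soat1 of the sebaceous list. Padi3, an enzyme of hair shaft and sheath cells, had 39 against 42 counts, a ratio of 0.535 (0.337 to 0.848). Mgst1 had 0.941 (0.777 to 1.14), Soat1 0.640 (0.5002 to 0.819) and the sebaceous regulator gene Prdm1 0.617 (0.398 to 0.957). The parts of these cell types in the keratin differences were not tested.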

How the data were processed

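Total RNA of 2 tumours was sequenced in bulk, 1 library per group. Per the labels, 1.5 µg of RNA per library was used. The authors deposited counts per gene in a full sheet and in reduced sheets, made on mm10, per the submitters' processing notes. Aligner, counter, read length, strand, shared reads and molecular identifiers are not stated in the sources used. In the deposited sheets, 31 rows at the top are on another scale, none a keratin, and were left out. A further 7 columns of values were not tied to a sample and not used. Columns were assigned through the reduced sheet deposited for each sample.

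Scaling used trimmed means of M values (30% of ratios and 5% of abundances trimmed), with factors of 1.01 and 0.989. Log2 ratios use CPM plus 1, folds no pseudocount. Intervals are exact 95% binomial intervals, which treat counts as independent molecules. Calls needed 2-fold and a mean of 10 CPM. The calls and intervals were tested on simulated counts. All keratins are accounted for, and those with a mean of 1 CPM or 10 counts are named with values; from other lists the 2 most abundant and the 2 with the largest ratios were named, and other genes were chosen after their values were seen. Keratin classes and lists were chosen with earlier results of these data known. Python 3.11.15, numpy 2.4.6, pandas 2.3.3, scipy 1.17.1 and matplotlib 3.10.9 were used. Other scalings, pseudocounts, minimums, a 1.5-fold threshold, the reduced sheets and keeping the 31 rows were tried. The plan assumed whole counts in all rows.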

Additional observations from a re-analysis of the deposited data

How the results depend on the processing

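No paired analysis was possible because each group has 1 library, and no library could be left out. Among alternative values of the summaries, 319 stayed close, 53 moved and 2 reversed. Other scalings left every keratin count within 1.5 times and every class median within its counting interval. With the reduced sheet Krt79 lost its call and the family median was 3.37, the same as with a minimum of 1 or 50 CPM. It was 3.23 with a pseudocount of 5, and 2.56 with no minimum. With a pseudocount of 5 the basal, suprabasal, wound-activated and keratinocyte medians were 3.21, 3.80, 5.06 and 3.72. The suprabasal median was 4.40 with a minimum of 1 CPM and 3.001 with none, where 5 genes were higher. Of simple keratins, 1 was higher with a minimum of 1 CPM and with none, Krt23, and 1 at 1.5-fold, Krt19. With no minimum the median of the simple keratins was 0.23.

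Counts past the threshold in the other lists moved as follows. With a minimum of 50 CPM they were 3 of 8 tested for desmosomes, 9 of 9 for keratinocytes and 1 of 9 for luminal cells. Of all 3342 genes tested there, 81 were higher and 77 lower. With a minimum of 1 CPM they were 1 of 9 for other filaments, 1 of 7 for hair, 1 of 6 for sebaceous gland and 3 of 5 for melanocytes. They were 3 of 11 for dermal fibroblasts and 4 of 16 for luminal cells, beside 1061 higher and 674 lower of all 13860 genes. With no minimum they were, in the same order, 1 of 15, 2 of 12, 5 of 12, 3 of 7, 3 of 12 and 4 of 16. The myoepithelial count was then 7 of 11. Of all 19296 genes with a count, 1356 were higher and 774 lower. At 1.5-fold they were 1 of 4 for hair, 2 of 3 for sebaceous gland, 2 of 5 for fibroblasts and 4 of 12 for luminal cells. Of all 8865 genes, 1138 were then higher and 800 lower. With mitochondrial, ribosomal protein and haemoglobin genes left out of the totals, 2 of 8 fibroblast genes were past 2-fold. Of all 9652 genes, 438 were then higher and 291 lower. The sebaceous median reversed to 0.094 with a minimum of 1 CPM and 0.38 with none, and with 50 CPM the fibroblast median was 0.79 and the myoepithelial -1.79. The cause was not tested.

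With those totals as denominator, the family held 0.894% of treated and 0.518% of control counts, simple keratins 0.512% and 0.492%, basal 0.171% and 0.0166%, suprabasal 0.0618% and 0.00346% and wound-activated 0.138% and 0.00460%. Without Krt6a and Krt6b the family held 0.641% and wound-activated keratins 0.0568% of treated counts. Type I shares without Krt8 and Krt18 were 58.0% (treated) and 30.7% (control). Control counts of 1 to 5 limit the ratios of Krt1, Krt5, Krt6a, Krt6b, Krt16, Krt77 and Krt79.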
